A study of Mus musculus with 15 samples.

Results

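Expression of 37 interferon-stimulated genes and RNA sensors was examined in mouse brain RNA sequencing libraries from a kainic acid (KA) epilepsy study. The genes are rows of a table of 65964 entries whose mouse Ensembl identifiers map to the listed symbols, and each of the 37 was found once. Of these, 36 reached 1 TPM (a transcript level corrected for transcript length and library size) in at least 3 of 15 libraries and were tested. Oas3 was not, with 10.2 TPM in APOE_H replicate 1 and under 1 TPM elsewhere. Zbp1 passed this filter through H libraries alone, so a difference between H and L had to follow for it. Among genes called below, Oas2, Mx1 and Dhx58 would not have passed without the H libraries. Outside H, Oas2 and Dhx58 each reached 1 TPM in 1 KA_L and 1 CTRL_L library, and Mx1 in 2 CTRL_L libraries. Their calls as higher in H are thus not independent of the filter.

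Type I interferons bind a receptor made of IFNAR1 and IFNAR2 and act through the kinases JAK1 and TYK2. A transcription factor complex that contains IRF9 then binds the interferon-stimulated response element in promoters. The genes switched on there include sensors of viral RNA, enzymes that attack viral replication and factors that amplify or end the response, and in brain the response is prominent in microglia.

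All mice were C57BL/6, and the tissue was brain. The 5 groups of 3 libraries were APOE_H and APOE_L (KA plus APOE), KA_H and KA_L (KA alone) and CTRL_L (untreated). The letters H and L are in the library names without a definition, no untreated H group was among the libraries, and the labels give the KA epilepsy model for every library, the untreated ones included. How APOE was manipulated and how old the animals were is not in the labels. Nor is it stated whether libraries came from different mice, so the p-values reflect spread among libraries that may be technical.

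Apoe itself was at 144, 6.49 and 12.4 TPM in APOE_H and 0.69, 0.71 and 0 TPM in APOE_L, against 8767 to 16636 TPM in KA_H and 1969.6 to 3262 TPM in KA_L (log2 fold change averaged over H and L -9.89, SE 0.62, adjusted p = 2.52e-07, limma). Of 10 microglia markers, all were at 1 TPM or more in each library, whereas 8 neuron markers summed to between 0.01 and 66.4 TPM per library, with Slc17a7 and Gad1 at 0 in each APOE_L and KA_L library. Choroid plexus markers moved with the letter among libraries after KA, but not in the untreated L libraries. The 8 genes summed to 38239 to 58709 TPM in APOE_H and 33077 to 41064 TPM in KA_H, against 126 to 297 TPM in APOE_L and 57.6 to 1281 TPM in KA_L. In the CTRL_L libraries they summed to 139, 38940 and 23710.5 TPM. Otx2, a defining marker among them, was at 0 in every APOE_L and KA_L library. Endothelial markers (8 genes) summed to 349 to 582 TPM in APOE_H and 220 to 970.3 TPM in KA_H, against 3.21 to 98.1 TPM in APOE_L, 59.2 to 294 TPM in KA_L and 84.9 to 243 TPM in CTRL_L. Neutrophil markers summed to 336 to 1293 TPM in KA_H, 0.02 to 1193 TPM in APOE_H and at most 0.39 TPM in every other library. Assembled loci without a gene name held 2.2 to 6.78% of the total in H libraries and 10.6 to 12.1% in L libraries after KA. The part of these cells in the gene differences between H and L was not tested. In bulk samples, fewer cells of a type and less RNA per cell cannot be told apart.

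Promoters were available for 27 of the 37 genes (250 bases before to 50 after the start, RefSeq, GRCm38.p6). The core of the response element, searched on both strands as GAAA, then NN (any pair of bases), then GAAA, was present in 16 of these 27 (59.3%) and in 1079 of 27025 genes with a promoter in the table (3.99%). A match is a description of the letters and not a binding site. The 5 matching promoters of the genes with the highest mean level are shown, 5′ to 3′ on the gene's strand with the match in capitals. The regions are chr4:40239776-40240075 on the minus strand for Ddx58, chr7:104465144-104465443 on the minus strand for Trim30a, chr7:141010695-141010994 on the minus strand for Ifitm3, chr7:140955912-140956211 on the minus strand for Ifitm2 and chr8:71537423-71537722 on the minus strand for Bst2.
Ddx58: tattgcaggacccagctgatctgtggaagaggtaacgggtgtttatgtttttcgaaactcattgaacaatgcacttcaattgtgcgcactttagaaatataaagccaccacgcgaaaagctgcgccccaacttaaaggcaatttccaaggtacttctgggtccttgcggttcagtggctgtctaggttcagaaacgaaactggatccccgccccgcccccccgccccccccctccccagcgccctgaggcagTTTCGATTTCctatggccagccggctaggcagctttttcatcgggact
Trim30a: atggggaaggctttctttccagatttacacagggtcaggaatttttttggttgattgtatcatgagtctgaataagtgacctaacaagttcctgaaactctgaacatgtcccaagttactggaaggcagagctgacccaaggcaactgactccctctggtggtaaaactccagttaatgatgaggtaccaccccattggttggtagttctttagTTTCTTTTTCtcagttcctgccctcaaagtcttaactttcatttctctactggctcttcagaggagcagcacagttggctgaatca
Ifitm3: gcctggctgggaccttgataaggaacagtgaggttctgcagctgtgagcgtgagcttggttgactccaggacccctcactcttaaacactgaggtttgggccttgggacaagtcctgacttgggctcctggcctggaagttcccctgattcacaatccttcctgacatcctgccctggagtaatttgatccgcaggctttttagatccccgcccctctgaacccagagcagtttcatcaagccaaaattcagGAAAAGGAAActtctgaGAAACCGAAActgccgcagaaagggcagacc
Ifitm2: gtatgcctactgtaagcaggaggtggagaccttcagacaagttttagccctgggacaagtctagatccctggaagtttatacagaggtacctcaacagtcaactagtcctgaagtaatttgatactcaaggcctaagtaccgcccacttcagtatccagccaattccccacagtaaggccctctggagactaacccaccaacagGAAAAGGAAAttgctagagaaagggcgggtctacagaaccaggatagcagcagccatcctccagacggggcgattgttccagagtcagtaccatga
Bst2: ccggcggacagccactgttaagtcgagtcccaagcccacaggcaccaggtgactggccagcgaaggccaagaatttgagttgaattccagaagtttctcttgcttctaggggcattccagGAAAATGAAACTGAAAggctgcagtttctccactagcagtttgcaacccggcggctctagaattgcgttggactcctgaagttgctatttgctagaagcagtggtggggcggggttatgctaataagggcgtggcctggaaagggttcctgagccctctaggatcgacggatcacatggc
Counted from the start as 1, the match began at position 3 in Ddx58, at positions 3 and 20 in Ifitm3, at -36 in Trim30a, at -46 in Ifitm2 and at -130 and -124 in Bst2, where the matches overlap. In Ddx58 and Trim30a the match was on the opposite strand, as it also was in Ifit1, Ifit3, Ifit3b, Rsad2 and Stat2, whose averaged fold changes between H and L were positive and did not pass. In Ifitm3, Ifitm2 and Bst2 it was on the gene's own strand. Whether the strand of a match goes with the direction of a gene was not tested.

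Ddx58, which encodes the RNA sensor RIG-I, was by mean the most abundant of the 37 genes and moved against most of them. Averaged over the 15 libraries it stood at 1533 TPM, followed by Ifi27l2a at 687 TPM and Ifitm3 at 496 TPM. It made up 11.9 to 14.0% of the summed level of the 37 genes in APOE_H and 15.3 to 16.7% in KA_H, against 48.8 to 71.3% in APOE_L, 55.5 to 61.8% in KA_L and 43.7 to 72.2% in CTRL_L. The other 36 genes summed to 3264 ± 738 TPM in APOE_H, 1977 ± 1294 TPM in APOE_L, 3764 ± 593 TPM in KA_H, 1852 ± 151 TPM in KA_L and 738 ± 484 TPM in CTRL_L (mean ± SD, n = 3). Within APOE_L, replicate 3 reached 3463 TPM, and its other replicates were at 1372 and 1097 TPM.

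**Figure D1:**
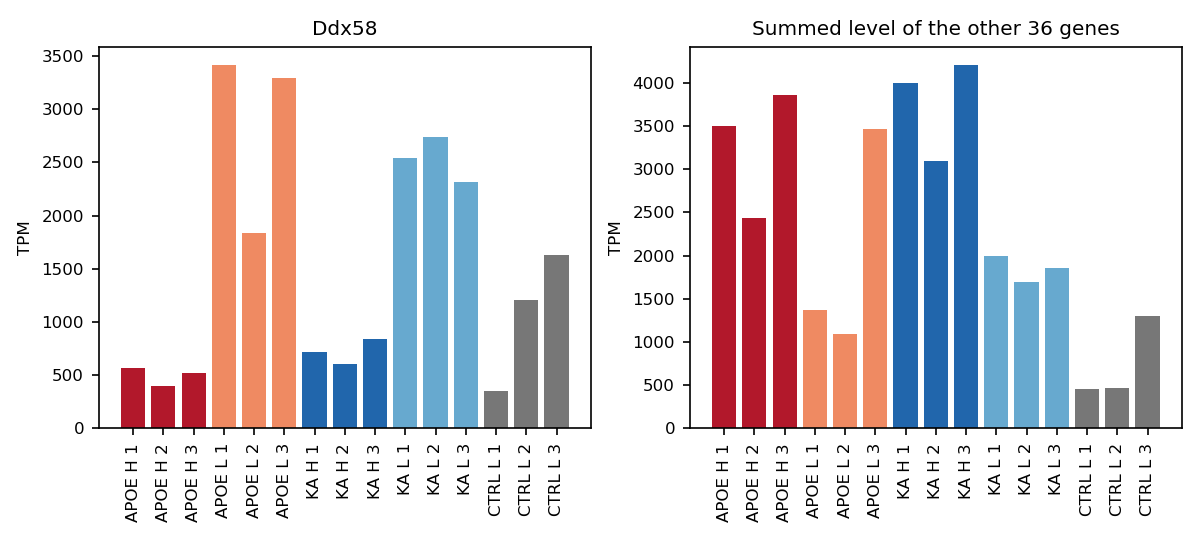
Level of Ddx58 (left) and summed level of the other 36 genes (right) in TPM, 1 bar per library, coloured by group. Ddx58 was at 396 to 844 TPM in the H libraries and 1839.5 to 3414 TPM in the L libraries after KA, while the other genes summed to 2437 to 4204 TPM in H and 1097 to 3463 TPM in L.

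Many of the genes were listed at 0 in part of the libraries. Of the 37, 24 were at 0 in at least 1 library and 6 reached 1 TPM in all 15. In APOE_H 36, 30 and 35 genes were at 1 TPM or more, in KA_H 30, 31 and 31, in KA_L 24, 19 and 19, and in CTRL_L 15, 15 and 20. APOE_L gave 17, 16 and 30, its replicate 3 being the high one. Across all 17505 tested entries the share at 1 TPM or more also moved with the letter, at 67.1 to 77.8% in H libraries and 52.6 to 63.7% in L libraries after KA, and its part in the differences below was not tested.

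**Figure D2:**
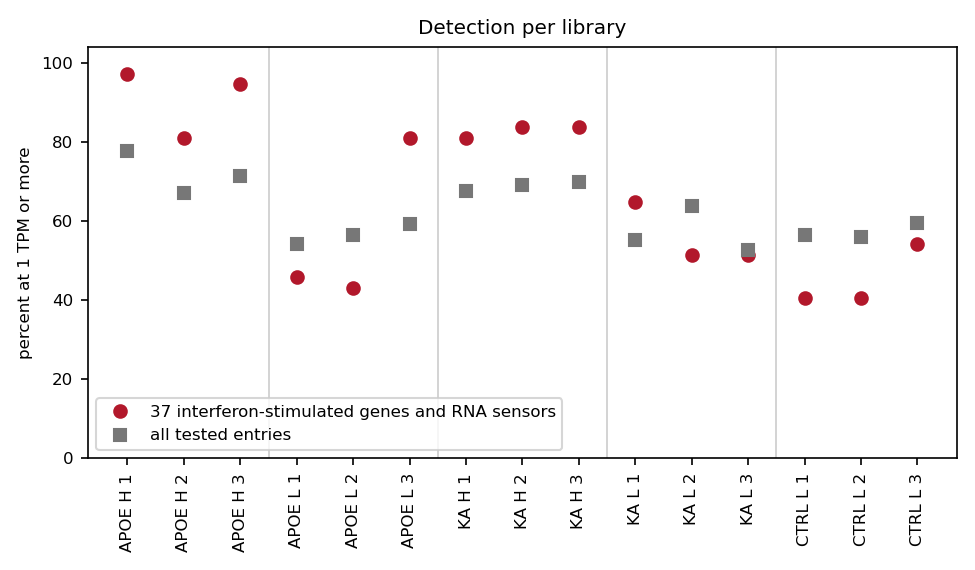
Percent of the 37 genes (circles) and of all tested entries (squares) at 1 TPM or more, by library. The genes were at 81.1 to 97.3% in the H libraries, and in the L libraries after KA at 43.2 to 64.9% apart from APOE_L replicate 3 at 81.1%.

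**Figure D3:**
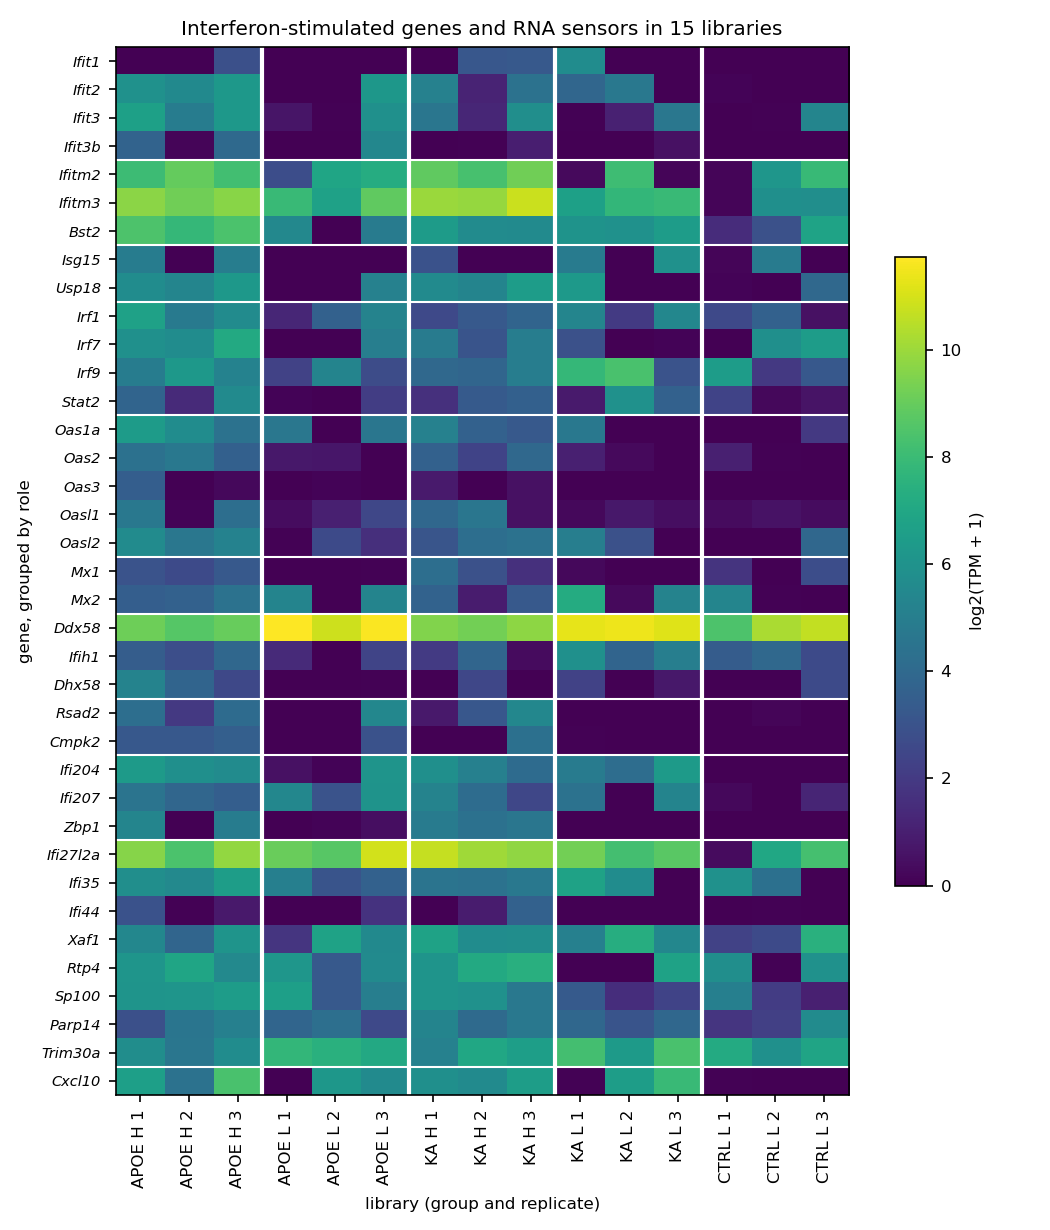
Level of each of the 37 genes (rows, grouped by role) in each library (columns, grouped by condition) as log2(TPM + 1). Ddx58 was brightest in the L libraries after KA, and the Ifitm genes in the H libraries.

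H libraries were set against L libraries after KA, averaged over KA and APOE, to show what differed with the letter. The antiviral genes Oas2 and Mx1, the nucleic acid sensor gene Zbp1 and the transcription factor gene Irf7 rose in H. The sensor gene Ddx58 and Trim30a, a negative regulator of innate signalling in mouse, fell. These 6 of 36 tested genes (16.7%) compare with 10.2% of all 17505 entries past the threshold, a Benjamini-Hochberg adjusted p under 0.05 in limma. By direction, 4 of 36 were higher, against 7.72% of all entries, and 2 lower, against 2.46%. The other 30 did not pass. Of those higher, Zbp1 entered the tests through H libraries alone, and Oas2 and Mx1 only with them. These calls, and their part in the counts above, are therefore not independent of the filter. With no filter on low values, the adjusted p was 0.0255 for Zbp1, 0.00456 for Oas2 and 0.0271 for Mx1 (limma). Of the 36, 30 had a positive log2 fold change, with a median of 1.83, where 58.5% of all tested entries were positive and their median was 0.32. An unadjusted p under 0.05 was reached by 19 of 36 genes, 17 of them higher, and by 26.3% of all entries. Ifitm3, Oas2 and Mx1 lay above all L libraries in every H library, as 3.42% of all entries did, and Ddx58 below, as 2.18% did.

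**Figure D4:**
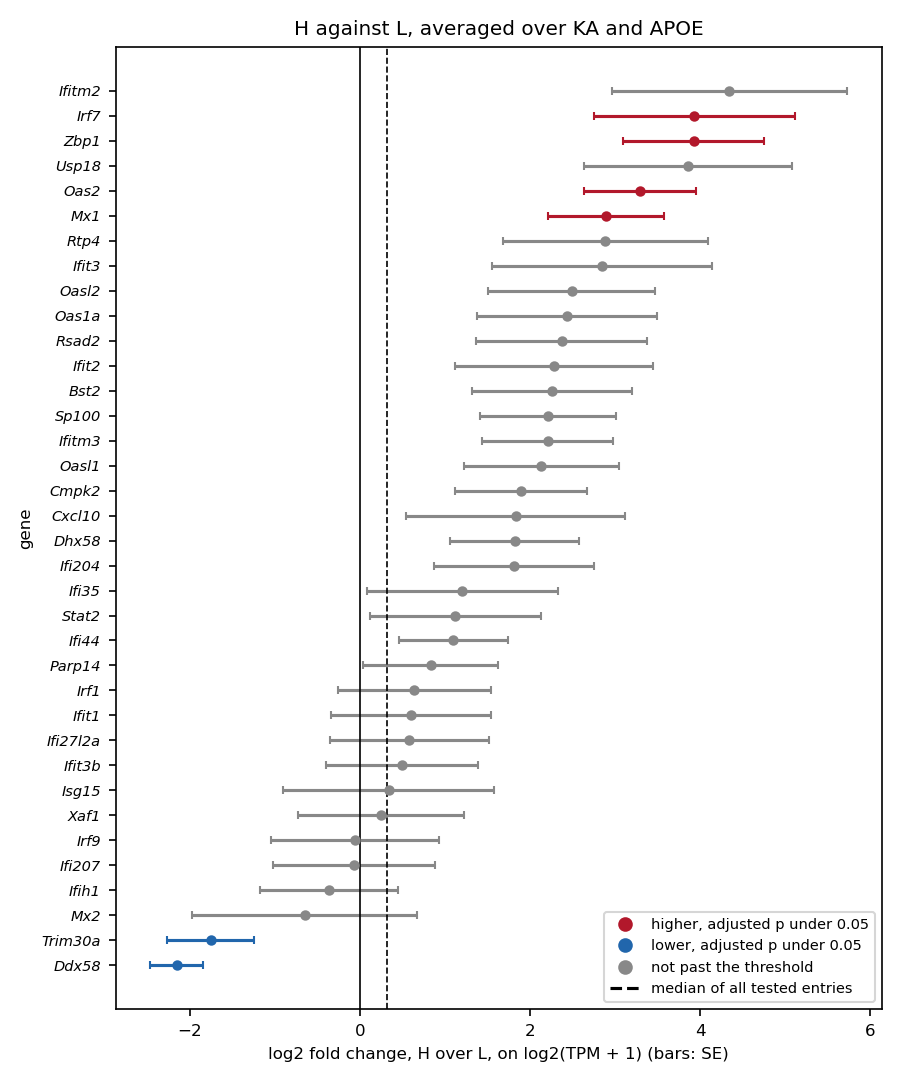
Log2 fold change of H over L libraries, averaged over KA and APOE, for the 36 tested genes on the log2(TPM + 1) scale, with SE bars; the dashed line is the median of all tested entries at 0.32. The genes past the threshold are Irf7, Zbp1, Oas2 and Mx1 on the higher side and Trim30a and Ddx58 on the lower.

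Among the RNA sensors, Ddx58 stood at 571, 396 and 519 TPM in APOE_H and 720.1, 610.5 and 844 TPM in KA_H. It was at 3414, 1839.5 and 3295 TPM in APOE_L and 2545, 2743 and 2315 TPM in KA_L, and at 351, 1211 and 1628 TPM in CTRL_L. No H library reached the lowest L library after KA. The averaged log2 fold change was -2.15 (SE 0.31, adjusted p = 0.000628, limma; lower in 6 of 6 libraries), and the call held in all 20 alternative settings, with adjusted p from 3.08e-05 to 0.00873. Within the APOE condition it was -2.49 (SE 0.44, adjusted p = 0.00554, limma). Within KA alone it was -1.81 (SE 0.44) and sat on the threshold at adjusted p = 0.0501, without overlap between KA_H and KA_L.

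Ifih1, which encodes the long double-stranded RNA sensor MDA5, followed another order. Its levels were 10.1, 5.96 and 14.0 TPM in APOE_H, 1.6, 0.02 and 4.25 TPM in APOE_L, 2.93, 13.2 and 0.27 TPM in KA_H, 58.2, 12.7 and 31.1 TPM in KA_L and 9.65, 14.8 and 5.27 TPM in CTRL_L. The APOE_L values lay below all those of APOE_H and KA_L, and the averaged H against L value of -0.36 did not pass. Dhx58, encoding the regulatory sensor LGP2, was at 36.7, 12.8 and 4.82 TPM in APOE_H and 0, 0 and 0.05 TPM in APOE_L, against 0, 4.7 and 0 TPM in KA_H and 4.04, 0 and 0.68 TPM in KA_L. It rose in APOE_H over APOE_L by 3.83 on the log2 scale (SE 1.08; limma, adjusted p = 0.0439), with no overlap, but leaving out any 1 of the 6 libraries ended the call (adjusted p 0.0559 to 0.149).

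Oas2 encodes an enzyme that makes the 2′-5′-linked oligoadenylates which activate RNase L. It was at 19.6, 24.7 and 11.1 TPM in APOE_H and 11.5, 4.22 and 14.8 TPM in KA_H, against 0.7, 0.62 and 0.01 TPM in APOE_L and 1.07, 0.24 and 0.02 TPM in KA_L. CTRL_L libraries held 1.05, 0.05 and 0.02 TPM. Every H library stood above every L library, the untreated ones included. The averaged log2 fold change was 3.30 (SE 0.66, adjusted p = 0.00526, limma), higher in 6 of 6 libraries. It passed in all 20 alternatives, most of which used the same filter. Oas2 passed that filter only with the H libraries, so its calls between H and L are not independent of it. With no filter on low values the averaged adjusted p was 0.00456 (limma). Within APOE, Oas2 rose by 3.72 (SE 0.93, adjusted p = 0.0266, limma), a call that ended without any 1 of the 6 libraries (adjusted p 0.0549 to 0.0819).

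Of the rest of the synthetase family, Oas3 was not tested and none of the others passed. Oasl2, a synthetase relative, was at 50.4, 24.1 and 35.6 TPM in APOE_H and 0.06, 5.25 and 2.04 TPM in APOE_L, with no overlap, and at 7.43, 17.6 and 20.4 TPM in KA_H and 31.8, 6.62 and 0 TPM in KA_L. Oas1a ran from 8.67 to 84.9 TPM in the H libraries and from 0 to 24.8 TPM in the L libraries after KA. Oasl1 exceeded 14 TPM in 4 of 6 H libraries and stayed at 4.61 TPM or less in the L libraries. The averaged log2 fold changes were 2.49, 2.44 and 2.13 for Oasl2, Oas1a and Oasl1 (adjusted p = 0.119, 0.152 and 0.148, limma). Reads may be shared among similar members of the family, which was not tested.

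Mx1, a dynamin-like GTPase gene, was low throughout. Its levels were 7.08, 5.26 and 8.73 TPM in APOE_H and 17.8, 6.47 and 2.05 TPM in KA_H, against 0, 0 and 0.06 TPM in APOE_L and 0.19, 0 and 0 TPM in KA_L. In CTRL_L it was at 2.4, 0.02 and 5.77 TPM. H and L libraries after KA did not overlap (log2 fold change 2.89, SE 0.68, adjusted p = 0.0126, limma; higher in 6 of 6 libraries), while the CTRL_L values spanned both. Among 20 alternatives, the call ended under quantile normalization alone (adjusted p = 0.0575). With no filter on low values the adjusted p was 0.0271 (limma). Mx1 passed the filter only with the H libraries, so this call is not independent of it. Its relative Mx2 was at 0.88 to 20.2 TPM in H and 0 to 147 TPM in L libraries after KA (log2 fold change -0.65) and did not pass.

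Zbp1 encodes a sensor of Z-form nucleic acids that can trigger cell death. It stood at 39.3, 0 and 29.0 TPM in APOE_H and 28.7, 19.9 and 23.5 TPM in KA_H. In APOE_L it was at 0, 0.08 and 0.36 TPM, in KA_L at 0.03, 0 and 0 TPM, and in CTRL_L it was listed at 0 in all 3 libraries. All H libraries but APOE_H replicate 2 were above every L library. The averaged log2 fold change was 3.92 (SE 0.83, adjusted p = 0.00744, limma), and it passed in all 20 alternatives. Zbp1 entered the tests through H libraries alone, so its calls between H and L are not independent of the filter. With no filter on low values the averaged adjusted p was 0.0255 (limma). KA_H against KA_L gave 4.62 (SE 1.18, adjusted p = 0.0619, limma).

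Ifi204 and Ifi207, members of the mouse HIN-200 family of DNA-binding proteins, showed no such split. Ifi204 was at 82.8, 56.7 and 49.96 TPM in APOE_H and 56.2, 33.3 and 16.4 TPM in KA_H, against 0.42, 0.07 and 65.8 TPM in APOE_L and 28.1, 17.1 and 83.9 TPM in KA_L. It was listed at 0, 0.02 and 0 TPM in CTRL_L, below every library treated with KA. Ifi207 ranged from 4.61 to 37.6 TPM in H libraries and from 0 to 64.1 TPM in L libraries after KA, and was at 0.18, 0 and 1.34 TPM in CTRL_L.

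Of the transcription factors, Irf7, which amplifies interferon production, was called. It was at 58.2, 51.95 and 137 TPM in APOE_H and 28.7, 7.3 and 30.9 TPM in KA_H, against 0.01, 0 and 31.4 TPM in APOE_L and 6.5, 0 and 0.1 TPM in KA_L. H libraries were above L libraries within each condition. Averaged, it rose by 3.93 on the log2 scale (SE 1.18, adjusted p = 0.0434, limma), but the call ended in 10 of 12 fits that left out 1 library, all but those without APOE_L replicate 3 or KA_L replicate 1 (adjusted p 0.0506 to 0.103). CTRL_L libraries were at 0, 56.7 and 87.9 TPM, and the pair with high levels was also the pair with high choroid plexus sums. Of the other genes called higher in H, Oas2 was at 0.05 and 0.02 TPM in that pair. Zbp1 was at 0 in both, and Mx1 was at 0.02 and 5.77 TPM. The part of choroid plexus cells was not tested. Exons of Irf7 share 1.19% of their bases with Phrf1 on the other strand, and whether counting used strand is unknown here.

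The genes of the signalling complex were variable. Irf9 was at 29.9, 76.2 and 36.4 TPM in APOE_H, 4.01, 38.2 and 5.61 TPM in APOE_L, 14.6, 13.2 and 30.2 TPM in KA_H, 224, 329 and 7.0 TPM in KA_L and 88.4, 2.92 and 8.45 TPM in CTRL_L. Stat2 reached at most 59.5 TPM (KA_L replicate 2) and was under 1 TPM in 5 libraries. Irf1, induced by both interferon types, was at 105, 27.6 and 49.1 TPM in APOE_H against 5.06, 8.55 and 12.6 TPM in KA_H, without overlap. None of these 3 passed in any comparison.

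The membrane restriction factors, which limit entry or release of enveloped viruses, were among the most abundant genes. Ifitm3 was at 829.8, 583 and 802 TPM in APOE_H and 1016, 934 and 1776 TPM in KA_H, against 248, 103 and 474 TPM in APOE_L and 101, 217 and 248 TPM in KA_L. All 6 H libraries lay above all 6 L libraries, yet the averaged log2 fold change of 2.21 (SE 0.77) missed the threshold (adjusted p = 0.0794, limma). It passed in 3 of 20 alternatives, with the compared libraries alone (adjusted p = 0.00263), array weights (0.0296) and quantile normalization (0.0489). Ifitm2 was at 265, 492 and 293.5 TPM in APOE_H and 464, 315 and 576 TPM in KA_H, against 5.92, 119.97 and 151 TPM in APOE_L and 0.22, 269.9 and 0.11 TPM in KA_L. It had the greatest averaged fold change among the 36 genes, 4.34 on the log2 scale, with an SE of 1.38 (adjusted p = 0.0563, limma). It passed in 7 of 20 alternatives, the replicate block among them (adjusted p = 0.0314) and lowest without KA_L replicate 2 (adjusted p = 0.00678, log2 fold change 5.65). In GENCODE M21, 40.9% of its exon bases also belong to Gm45717 on the same strand, so its reads may be shared.

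Bst2 encodes tetherin, which holds budding virions at the cell surface. Its levels were 353, 227 and 336 TPM in APOE_H and 44.3, 0 and 28.9 TPM in APOE_L, against 87.2, 49.3 and 47.5 TPM in KA_H and 64.9, 60.4 and 87.7 TPM in KA_L. The H libraries were the high ones in the APOE condition, whereas KA_H and KA_L overlapped. Bst2 rose in APOE_H over APOE_L by 4.76 on the log2 scale (SE 1.34, adjusted p = 0.0437, limma). The call ended without any 1 of the 6 libraries other than APOE_L replicate 1 (adjusted p 0.0515 to 0.160). Bst2 is also 1 of 6 listed markers of plasmacytoid dendritic cells. These summed to 1258 to 1667 TPM in APOE_H and 917 to 1165 TPM in APOE_L, against 807 to 884 TPM in KA_H, 899 to 1226 TPM in KA_L and 590 to 2069 TPM in CTRL_L. Of the 6, 3 or 4 were at 1 TPM or more in every library of a group, and Klk1 was at 0 in each KA_H, KA_L and CTRL_L library. The part of such cells in the Bst2 difference was not tested.

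Trim30a, the other gene that fell between H and L, was at 53.1, 23.2 and 50.6 TPM in APOE_H and 35.2, 124.7 and 94.1 TPM in KA_H, against 215, 173 and 133 TPM in APOE_L and 301, 82.4 and 334 TPM in KA_L. APOE_H and APOE_L did not overlap, and KA_H and KA_L did. The averaged log2 fold change was -1.75 (SE 0.51, adjusted p = 0.0381, limma; below the L median in 6 of 6 libraries). The call ended in 10 of 12 fits that left out 1 library, all but those without KA_H replicate 2 or KA_L replicate 2 (adjusted p 0.0501 to 0.0932).

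**Figure D5:**
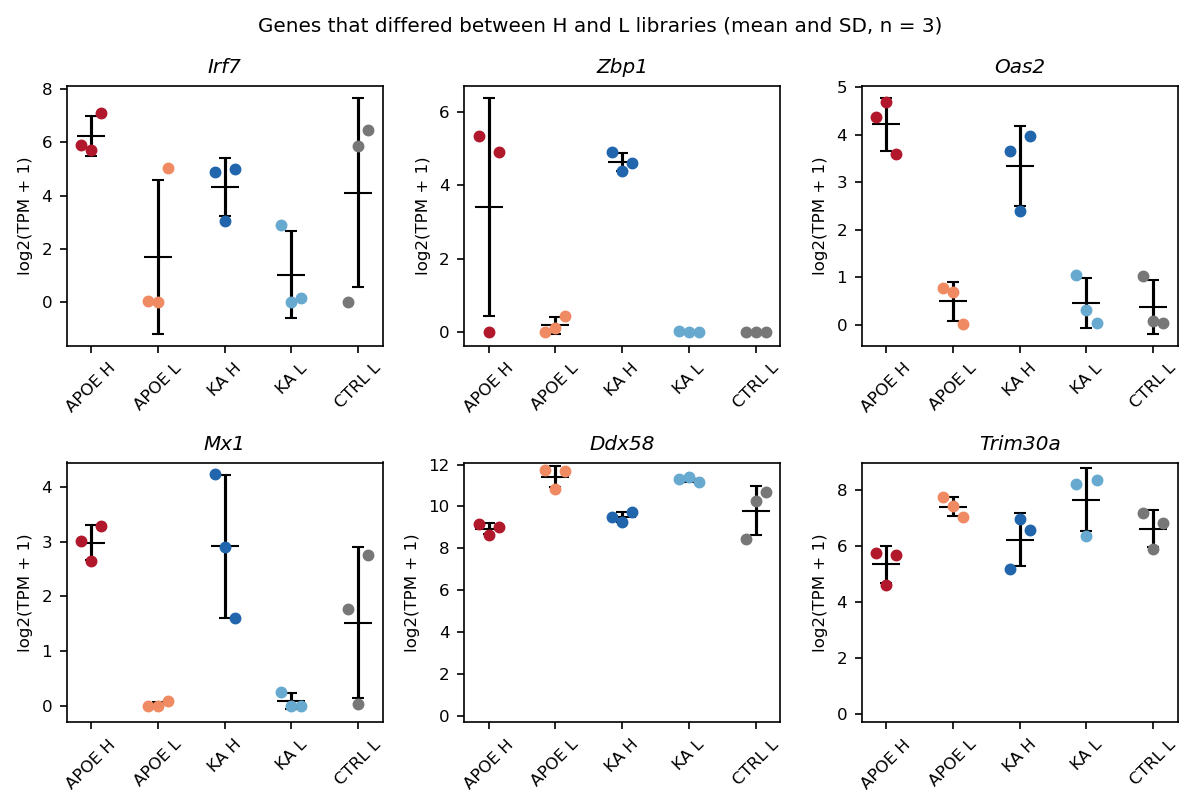
Level of the 6 genes that passed between H and L libraries as log2(TPM + 1), 1 point per library, with the mean and SD of 3 libraries per group. Oas2, Mx1 and Ddx58 separated all H from all L libraries after KA, and APOE_H replicate 2 was at 0 for Zbp1.

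Isg15 and the Ifit genes, classical induced genes, were at 0 in part of the libraries, and none of them or Usp18 passed. Isg15, the ubiquitin-like modifier, was at 29.1, 0 and 30.2 TPM in APOE_H, 0 in all 3 APOE_L libraries, 6.82, 0 and 0 TPM in KA_H, 28.5, 0 and 60.2 TPM in KA_L and 0.11, 28.3 and 0 TPM in CTRL_L. Usp18, its protease, was at 38.2 to 88.2 TPM in the 6 H libraries, while the L libraries after KA held 0, 0 and 35.0 TPM in APOE_L and 80.8, 0 and 0 TPM in KA_L (averaged log2 fold change 3.86, SE 1.22, adjusted p = 0.0554, limma). Ifit2, of the tetratricopeptide family that binds foreign RNA, was at 59.4, 46.8 and 75.9 TPM in APOE_H and 34.6, 1.26 and 20.1 TPM in KA_H, against 0, 0 and 73.1 TPM in APOE_L and 13.8, 25.2 and 0 TPM in KA_L. Ifit1 exceeded 1 TPM in 4 libraries and Ifit3b in 3, the highest being 50.9 TPM in KA_L replicate 1 and 42.6 TPM in APOE_L replicate 3. Ifit3 and Ifit3b are close copies, and reads may be split between them.

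APOE_L replicate 3 stood out within its group for these genes. In it, 8 of 37 genes (21.6%) were at 5 TPM or more while the other APOE_L libraries were under 1 TPM, namely Ifit2, Ifit3, Ifit3b, Usp18, Irf7, Rsad2, Cmpk2 and Ifi204. The same count was 983 of the 17505 tested entries (5.62%) in this library, and 0 of the 37 genes in either other APOE_L library. Rsad2, encoding the antiviral enzyme viperin, was at 42.4 TPM there, and at 0.01 and 0 TPM in the other APOE_L libraries. This count was chosen after its values were seen. Without this library, 8 genes passed between H and L, 7 higher and 1 lower, and 5 of the 6 named above were among them. The genes gained, Usp18, Rsad2 and Ifi204, were all among those high in this library alone within APOE_L. Leaving it out had to raise H over L for them, so these calls are not independent of how the library was picked. The share of all entries that passed in this fit is not given here.

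Rsad2 and Cmpk2, neighbours in function as nucleotide-modifying antiviral enzymes, were otherwise low in L. Rsad2 was at 18.0, 2.81 and 16.2 TPM in APOE_H and 0.77, 8.11 and 41.6 TPM in KA_H, and at most 0.02 TPM in KA_L. Cmpk2 was at 8.53, 8.34 and 10.9 TPM in APOE_H, 0, 0 and 6.69 TPM in APOE_L, 0, 0 and 19.3 TPM in KA_H and at most 0.04 TPM in KA_L. Neither passed in any comparison.

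Ifi27l2a, an interferon-induced mitochondrial protein gene, was the second most abundant gene. It was at 773, 335 and 917 TPM in APOE_H and 527, 413 and 1942 TPM in APOE_L, against 1650.5, 1086 and 891 TPM in KA_H, 608, 303 and 431 TPM in KA_L and 0.28, 128 and 305 TPM in CTRL_L. KA_H lay above KA_L and CTRL_L without overlap. Sp100, a nuclear body gene, was at 66.7, 60.4 and 24.7 TPM in KA_H and 8.91, 1.9 and 4.07 TPM in KA_L, also without overlap (log2 fold change 3.17, SE 1.13, adjusted p = 0.198, limma). Rtp4, a chaperone gene with antiviral action, was at 66.9, 137 and 170.02 TPM in KA_H and 0, 0 and 107 TPM in KA_L. Ifi35 was at 54.4, 44.8 and 91.9 TPM in APOE_H and 32.7, 7.4 and 11.5 TPM in APOE_L. Parp14 was at 38.6, 15.5 and 25.0 TPM in KA_H and 14.1, 7.15 and 14.3 TPM in KA_L, without overlap. Xaf1 and Ifi44 overlapped between H and L in both conditions, and neither these nor Ifi27l2a, Sp100, Rtp4, Ifi35 and Parp14 passed.

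Within a condition, KA_H against KA_L gave 0 of 36 genes past the threshold by limma (1.49% of all entries passed), and 11 of 36 at an unadjusted p under 0.05, 9 higher and 2 lower, where 14.8% of all entries reached it. Ddx58 passed under a pseudocount of 0.1, a filter of 5 TPM, quantile normalization and array weights (adjusted p 0.0362 to 0.0415), and Zbp1 under a pseudocount of 0.1 and both scalings (0.0384 to 0.0484). KA_H libraries lay wholly above KA_L for 10 of 37 genes, where 10.5% of all entries did, and wholly below for Ddx58 alone (9.12% of all entries). APOE_H against APOE_L gave 4 of 36, with Oas2, Dhx58 and Bst2 higher and Ddx58 lower (6.15% of all entries, with 4.7% higher and 1.45% lower). Here 12 of 37 genes lay wholly above (20.1% of all entries) and 2, Ddx58 and Trim30a, wholly below (9.65%).

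KA was set against the untreated group. In KA_L the median log2 fold change over CTRL_L was 0.97 for the 36 genes and 0.00 for all entries, and none of the 36 passed by limma (0.571% of all entries did). At an unadjusted p under 0.05 there were 5 genes, all higher: Ifi204, Cxcl10, Ifi27l2a, Ifitm3 and Ddx58. The share of all entries at that level was 11.1%. With a pseudocount of 0.1, 1 gene, Ifi204, passed. Cxcl10, an interferon-induced chemokine gene that draws T cells, was at 0.04, 90.8 and 249 TPM in KA_L against 0.06, 0 and 0 TPM in CTRL_L. KA_L lay wholly above CTRL_L for Ifitm3, Ddx58 and Ifi204, 3 of 37, where 6.27% of all entries did, and wholly below for 0 (4.54%).

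KA_H against CTRL_L differs in letter and treatment together. Ifitm3 rose, at 1016, 934 and 1776 TPM in KA_H against 0.13, 57.2 and 54.4 TPM in CTRL_L (log2 fold change 6.27, SE 1.09, adjusted p = 0.0252, limma; higher in 3 of 3 libraries). It was the sole call among 36 genes, where 0.377% of all entries passed and 0.314% were higher, and it ended without any 1 of the KA_H libraries (adjusted p 0.0642 to 0.0958) or when the 6 libraries were fitted alone (adjusted p = 0.345). KA_H lay wholly above CTRL_L for 13 of 37 genes, with 7.74% of all entries doing so, and for 0 wholly below (6.63%). Cxcl10 was among them, at 55.7, 47.6 and 91.4 TPM in KA_H. The choroid plexus sums were 139, 38940 and 23710.5 TPM in CTRL_L replicates 1, 2 and 3, and 33077 to 41064 TPM in KA_H. Without CTRL_L replicate 1, where Ifitm3 was at 0.13 TPM, the log2 fold change of Ifitm3 was 4.39 (adjusted p = 0.00541, limma). The part of these cells in the Ifitm3 difference was not tested.

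The APOE condition was set against KA alone within each letter. None of the 36 genes passed in APOE_L against KA_L (0.0457% of all entries passed), in APOE_H against KA_H (0.531%) or averaged over H and L (0.0171%), by limma. Unadjusted p under 0.05 was reached by 3, 1 and 1 of 36 genes, and by 7.84, 8.63 and 8.23% of all entries. Median log2 fold changes were -0.06, 0.70 and 0.10 for the 36 genes and -0.04, 0.25 and 0.07 for all entries. The median of the 36 genes in APOE_L against KA_L turned to 0.03 with quantile normalization and 0.02 with upper-quartile scaling, and the averaged one to -0.00091 with upper-quartile scaling. In APOE_L, Bst2 and Ifih1 lay wholly below KA_L (2 of 37 genes, 5.52% of all entries), and 0 genes lay wholly above (3.57%). For Ifih1 the log2 fold change was -3.62 (SE 1.15, adjusted p = 0.392, limma). In APOE_H, 7 of 37 genes lay wholly above KA_H (Ifit2, Bst2, Irf1, Irf7, Oasl2, Dhx58 and Ifi35; 14.6% of all entries) and 2, Ifitm3 and Ddx58, wholly below (6.51%). Averaged, 0 of 37 genes separated the 6 APOE libraries from the 6 KA libraries in either direction (0.109 and 0.103% of all entries).

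Whether the APOE difference itself differed between H and L was tested as an interaction, which 0 of 36 genes passed by limma (0.0457% of all entries). At an unadjusted p under 0.05 there were 5, all with a more positive APOE difference in H: Isg15 at 5.91, Bst2 at 5.01, Ifih1 at 4.97, Irf9 at 4.18 and Dhx58 at 4.02 on the log2 scale (adjusted p 0.436 to 0.600). Of all entries, 8.32% were under 0.05 unadjusted. Comparisons with KA_L, KA_H or APOE_L in common share those libraries.

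Upstream of these genes, transcripts of the interferons Ifnb1, Ifna4 and Ifng were listed at 0 in all 15 libraries. A list of 76 further pathway genes was counted, of which 72 were tested. Between H and L averaged, 5 rose, 0 fell and 67 did not pass, and in APOE_H against APOE_L 4 rose and 68 did not. Of all entries, 7.72% and 4.7% rose in these comparisons, so the counts of 5 and 4 of 72 lay near the shares of all entries. In each of the other 7 comparisons 0 of 72 passed by limma. Leaving out APOE_H replicate 1 or 3 lowered the genes called in any comparison to 2 and 1, against 6 with all libraries.

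Ly6e, which restricts viral entry, was at 3555, 2076 and 3918 TPM in APOE_H and 2671, 1270.4 and 2172 TPM in KA_H. It was at 966, 671 and 1215 TPM in APOE_L and 569, 494 and 786 TPM in KA_L, below every H library (log2 fold change 1.71, SE 0.36, adjusted p = 0.00735, limma). Lgals3bp, a secreted glycoprotein gene, rose by 1.62, Shisa5 by 2.14, the adaptor gene Myd88 of Toll-like receptors by 2.97 and Socs1, which shuts off JAK signalling, by 1.56 (adjusted p = 0.0169, 0.0330, 0.0331 and 0.0381, limma). In APOE_H against APOE_L, Myd88, Shisa5, Gbp3 and Lgals3bp rose by 4.25, 3.43, 3.01 and 2.33 (adjusted p = 0.0436, 0.0266, 0.0465 and 0.0234, limma). Socs1 entered the tests through H libraries alone and Gbp3 only with them, so their calls are not independent of the filter.

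The receptor genes were detected in most libraries. Ifnar2 ran from 141 to 338 TPM in H and from 9.45 to 368 TPM in L libraries after KA, and Ifngr1 from 197 to 586 TPM and from 164 to 376 TPM. Ifnar1 was lower, at 6.21 to 64.2 TPM in H and 0.01 to 27.6 TPM in L libraries after KA (log2 fold change 2.63, SE 0.91, adjusted p = 0.0768, limma).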

How the data were processed

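The authors deposited a table of TPM values for 15 libraries, with rows of 55416 mouse Ensembl identifiers and 10548 assembled loci. Alignment used STAR and the build GRCh38, per the submitters' processing notes, although that assembly is human; quantifier, annotation and strand are not given in the sources used here. TPM keeps no read depth, so no counting interval is given. Symbols came from GENCODE M21 by identifier. Group and replicate came from library titles, and every column was used.

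Tests were run in R 4.3.3 with limma 3.58.1 on log2(TPM + 1), with 1 mean per group and 10 residual degrees of freedom. They covered the 17505 entries that reached 1 TPM in 3 or more libraries, with Benjamini-Hochberg adjustment in each of 9 comparisons and a threshold of 0.05. The pseudocount compresses low genes, so fold changes understate them. Apoe was also tested by exact two-sided permutation, which cannot go below 0.1 for 3 against 3 libraries and gave 0.00216, its minimum, for 6 against 6. The fit was tested on simulated data with normal noise and no added zeros. That setting cannot show how the fit treats genes listed at 0 in part of the libraries.

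The members and lists were chosen with earlier results of these data known. Named genes were those called in any comparison, the 10 most abundant, the RNA sensors, and those without overlap and a log2 difference of at least 2, 27 in all, with the other 10 given by role. Alternatives were a pseudocount of 0.1, no filter or a filter of 5 TPM, upper-quartile or quantile scaling, array weights, compared groups alone, a replicate block and leaving out each library.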

Additional observations from a re-analysis of the deposited data

Results flagged for a closer look

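Bst2 moved in opposite directions in the APOE condition: its 3 APOE_H libraries (227 to 353 TPM) all lay above the 3 KA_H libraries (47.5 to 87.2 TPM), and its 3 APOE_L libraries (0 to 44.3 TPM) all lay below the 3 KA_L libraries (60.4 to 87.7 TPM). The interaction was 5.01 on the log2 scale (SE 1.89) and did not pass (adjusted p = 0.512, limma). The APOE_L value listed at 0 is that of replicate 2. Of all tested entries, 14.6% lay wholly above KA_H in APOE_H, and 5.52% lay wholly below KA_L in APOE_L. The share of entries that did both was not counted.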

How the results depend on the processing

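No called fold change of a named gene reversed in any alternative. Between H and L averaged, 6 genes passed and 4 to 9 did in the alternatives (4 to 8 when 1 library was left out). Ddx58, Oas2 and Zbp1 passed in all 20 and Mx1 in 19, while Irf7 passed in 8 and Trim30a in 7. Of these, Zbp1 had entered the tests through H libraries alone, and Oas2 and Mx1 only with them. APOE_H against APOE_L, with 4 genes called, gave 8 with array weights, 2 with no filter, 2 with a pseudocount of 0.1, 2 with quantile normalization and 1 to 3 without 1 library. KA_H against KA_L, with 0, gave 1 with array weights, 1 with a filter of 5 TPM, 2 with a pseudocount of 0.1, 2 with quantile normalization, 1 with upper-quartile scaling and 0 to 1 without 1 library, the 1 being Ifitm2 without KA_L replicate 2. KA_H against CTRL_L, with 1, gave 0 with no filter, 0 with the compared groups alone and 0 to 1 without 1 library. KA_L against CTRL_L, with 0, gave 1 with a pseudocount of 0.1. The pathway genes called in any comparison, 6 in all, numbered 11 with array weights, 0 with no filter and 1 to 8 without 1 library; these settings were applied to that list after seeing the data. Apoe kept its call, from -10.53 to -9.46. Calls among all entries also moved with the setting. In KA_H against KA_L they numbered 260 as deposited, 323 with quantile normalization and 393 with upper-quartile scaling. In APOE_H against APOE_L they numbered 1076 as deposited and 987 with quantile normalization. The share of all entries that passed is not given here for the alternatives other than scaling. The cause of these changes was not tested.

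The median log2 fold change of all entries between H and L was 0.32 as deposited, 0.38 with upper-quartile scaling and -0.14 with quantile normalization; 30, 31 and 29 of 36 genes were positive, with medians of 1.83, 1.91 and 1.39, and Ddx58 stayed lower throughout. The higher and lower calls were 4 and 2 as deposited and 6 and 1 under either scaling. Calls among all entries rose too, from 1782 as deposited to 1912 with upper-quartile scaling and 2006 with quantile normalization. A replicate block gave 7 genes between H and L, 3 in APOE_H against APOE_L (Dhx58 lost, adjusted p = 0.0641, limma), 1 in KA_H against CTRL_L, 0 elsewhere, and 7 pathway genes. Across genes, deviations from group means correlated at -0.026 to 0.037 (median 0.0047) between same-numbered libraries. Between differently numbered libraries they correlated at -0.046 to 0.022 (median -0.00076). With group means of 3 libraries and many values at 0, this cannot decide whether the numbers pair libraries. TPM gives no depth, so values near 0 cannot be told from undetected transcripts.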
